A study of Homo sapiens with 9 samples.

Results

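The 8 genes of classical non-homologous end joining, XRCC5, XRCC6, PRKDC, DCLRE1C, XRCC4, LIG4, NHEJ1 and TP53BP1, were taken by gene symbol from a table of 24204 symbols. All 8 symbols were found, and all 8 lay above 1 FPKM (fragments scaled for gene length and library depth, a level per length) in each of the 9 libraries. RNA was taken from the liver cancer line HepG2, kept in high-glucose medium with serum. All cells carried a lentiviral short hairpin RNA, either a control (shCtrl) or 1 of 2 that target TRIB3 (TRIB3 sh1, here shTRIB3-1, and TRIB3 sh2, here shTRIB3-2), and had 48 h of infection followed by 48 h of puromycin. The study asked whether TRIB3, a stress-induced pseudokinase, sustains DNA repair. Each group had 3 libraries, which the labels do not tie to separate cultures, so p-values measure the spread between these samples and that spread may be technical. The study's methods describe RNA from glutamine-deprived cells and strand-specific libraries made with a different kit from that of the labels. Its discussion reports changed repair gene expression after TRIB3 depletion in cells that kept glutamine, without naming the libraries. The medium at harvest and the strandedness of these libraries are therefore uncertain.

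Non-homologous end joining rejoins the ends of a DNA double-strand break without a template. The Ku ring, made of Ku70 (XRCC6) and Ku80 (XRCC5), threads onto the ends and recruits the kinase DNA-PKcs (PRKDC), which in turn activates the nuclease Artemis (DCLRE1C), and DNA ligase IV (LIG4) with XRCC4 and XLF (NHEJ1) seals the break. 53BP1 (TP53BP1) protects ends from resection, the step that commits a break to homologous recombination, and end joining works throughout the cell cycle, whereas recombination is used mainly after DNA replication.

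The hairpin target sites are shown because they define the groups, with the targeted bases in capitals and 15 bases of the TRIB3 transcript on each side in lower case. Both lie in the coding sequence of TRIB3 on chromosome 20 (GRCh38, plus strand), the first in exon 2 at chr20:388072-388092 and the second in exon 3 at chr20:391473-391493. Neither full site was present in any annotated transcript of the 8 end-joining genes.
shTRIB3-1: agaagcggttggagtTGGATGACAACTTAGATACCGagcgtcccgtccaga
shTRIB3-2: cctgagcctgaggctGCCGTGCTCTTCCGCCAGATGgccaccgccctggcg

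TRIB3 itself was at 67.9, 65.8 and 66.6 FPKM in the shCtrl libraries, at 34.1, 32.7 and 34.0 with shTRIB3-1, and at 20.6, 20.7 and 20.4 with shTRIB3-2. The groups did not overlap, and the log2 fold change against shCtrl was -0.99 (SE 0.030) with shTRIB3-1 and -1.70 (SE 0.030) with shTRIB3-2. All fold changes are differences of mean log2(FPKM + 0.1), which understates changes at low FPKM, and a gene passed when its limma p was under 0.05 after Benjamini-Hochberg adjustment across the 11265 genes tested. Depth, solved from the FPKM values, was 34206726 to 36311029 fragments per library. All 9 hepatocyte-line markers on a list were above 1 FPKM in every library (summed level 8381 to 9034 FPKM in shCtrl, 8601 to 9040 with shTRIB3-1 and 10815 to 11129 with shTRIB3-2, most of it ALB). Of these 9 markers, 5 were lower and 2 higher with shTRIB3-1, beside 41.5% and 32.9% of all tested genes. With shTRIB3-2, 2 were lower and 5 higher, beside 40.5% and 35.4%. Single markers differed in direction, with FGB at -0.92 and -0.47 and TTR at 1.08 and 1.71 on the log2 scale. Of 9 markers of other cell types, 6 stayed under 1 FPKM in every library, and PTPRC, the marker of blood cells, had at most 1 fragment in any library. The other 3 were expressed, with shCtrl means of 153 FPKM for EPCAM, 58.6 for ACTA2 and 31.8 for CD68, and with shTRIB3-1 ACTA2 was lower (log2 fold change -0.55) and CD68 higher (0.24), while none of the 3 passed with shTRIB3-2. The part of these markers in the values below was not tested. All 16 S and M phase genes on a list fell with both hairpins, where 41.5% and 40.5% of all tested genes fell. The median log2 fold change of these 16 genes was -1.99 and -3.23, and their part in the values below was not tested.

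Promoter windows are shown because the study was concerned with G-quadruplexes (folded stacks of guanines) in promoters of repair genes. RefSeq windows from 250 bases before to 50 bases after the gene's start (GRCh38.p14) were held for 6 of the 8 genes, and none was held for XRCC5 and PRKDC. Only the first window listed for a gene was searched, although LIG4 had 5 and DCLRE1C and NHEJ1 had 2 each. The letters searched, on both strands, were 4 runs of GGG with 1 to 7 bases between them, and they were found in 2 of the 6 windows, those of NHEJ1 (2 matches) and TP53BP1 (1 match). The study's own motif search allowed shorter runs of G and longer gaps. A window without a match here may therefore still hold motifs of the study's kind, which were not searched. All 3 matches were on the strand opposite to the gene, so the capitals below read as runs of C. The same letters were found in 24.1% of all 27305 promoter windows (1 per gene) and in 33.7% of the 9088 windows of tested genes. The searched windows of XRCC6, DCLRE1C, XRCC4 and LIG4 held no match.
NHEJ1, chr2:219160766-219161065, minus strand: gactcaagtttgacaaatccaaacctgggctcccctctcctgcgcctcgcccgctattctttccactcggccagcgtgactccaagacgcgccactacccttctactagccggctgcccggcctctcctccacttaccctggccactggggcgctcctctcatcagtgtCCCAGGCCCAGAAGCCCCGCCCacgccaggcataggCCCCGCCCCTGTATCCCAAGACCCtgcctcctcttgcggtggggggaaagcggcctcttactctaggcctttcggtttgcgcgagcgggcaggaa
TP53BP1, chr15:43510591-43510890, minus strand: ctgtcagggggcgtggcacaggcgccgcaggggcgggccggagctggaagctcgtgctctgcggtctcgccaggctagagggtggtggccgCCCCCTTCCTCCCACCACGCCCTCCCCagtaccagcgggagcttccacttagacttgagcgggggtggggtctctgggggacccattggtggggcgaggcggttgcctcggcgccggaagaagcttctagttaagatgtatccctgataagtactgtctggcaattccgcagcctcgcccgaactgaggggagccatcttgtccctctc

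Another pair of motifs, TTTGGCGC and TTTCCCGC, which are letters bound by E2F factors of the replication programme, had 1 match in the 6 windows. It lay in XRCC6 on the strand opposite to the gene, at bases 43 to 50 after the RefSeq start. It is in capitals below as its reverse complement. The RefSeq start of this window lies further into the gene than the GENCODE start of XRCC6 given later. Windows of 2.31% of all genes and 3.93% of tested genes held either motif. A match describes letters and not a bound site.
XRCC6, chr22:41621045-41621344, plus strand: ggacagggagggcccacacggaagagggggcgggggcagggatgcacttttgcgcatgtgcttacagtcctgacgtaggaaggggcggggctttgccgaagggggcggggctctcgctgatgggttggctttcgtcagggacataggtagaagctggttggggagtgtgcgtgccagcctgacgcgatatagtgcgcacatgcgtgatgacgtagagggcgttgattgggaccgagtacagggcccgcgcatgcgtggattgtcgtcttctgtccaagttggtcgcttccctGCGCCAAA

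The largest falls among the 8 end-joining genes were those of PRKDC with both hairpins and of XRCC6 with shTRIB3-2. With shTRIB3-1, 4 of 8 genes fell (XRCC6, PRKDC, DCLRE1C and LIG4) and 0 rose, against 41.5% of all tested genes that fell and 32.9% that rose. With shTRIB3-2, 6 of 8 fell (XRCC5, XRCC6, PRKDC, DCLRE1C, XRCC4 and NHEJ1) and 0 rose, against a background of 40.5% lower and 35.4% higher. The median log2 fold change of the 8 genes was -0.22 with shTRIB3-1 and -0.21 with shTRIB3-2, beside -0.056 and -0.035 for all tested genes. None of the 8 passed with an absolute log2 fold change above 1, a size that 6.10% of tested genes reached downward with shTRIB3-1 and 6.27% with shTRIB3-2. All 3 knockdown libraries lay below all 3 shCtrl libraries for 5 genes with shTRIB3-1 (background 43.0%) and for 6 genes with shTRIB3-2 (background 41.3%). Both hairpins were compared with the same shCtrl libraries, so the 2 sets of counts are not independent. None of the 8 rose in any comparison at an unadjusted limma p under 0.05, or with voom on the recovered fragments. Quantile normalization ended the calls of DCLRE1C, XRCC4 and NHEJ1 with shTRIB3-2 and of LIG4 with shTRIB3-1, median centring those of NHEJ1 with shTRIB3-2 and LIG4 with shTRIB3-1, voom that of XRCC4 with shTRIB3-2, and testing without a level filter that of LIG4 with shTRIB3-1. In bulk RNA, fewer cells of a kind and less RNA per cell cannot be told apart.

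**Figure D1:**
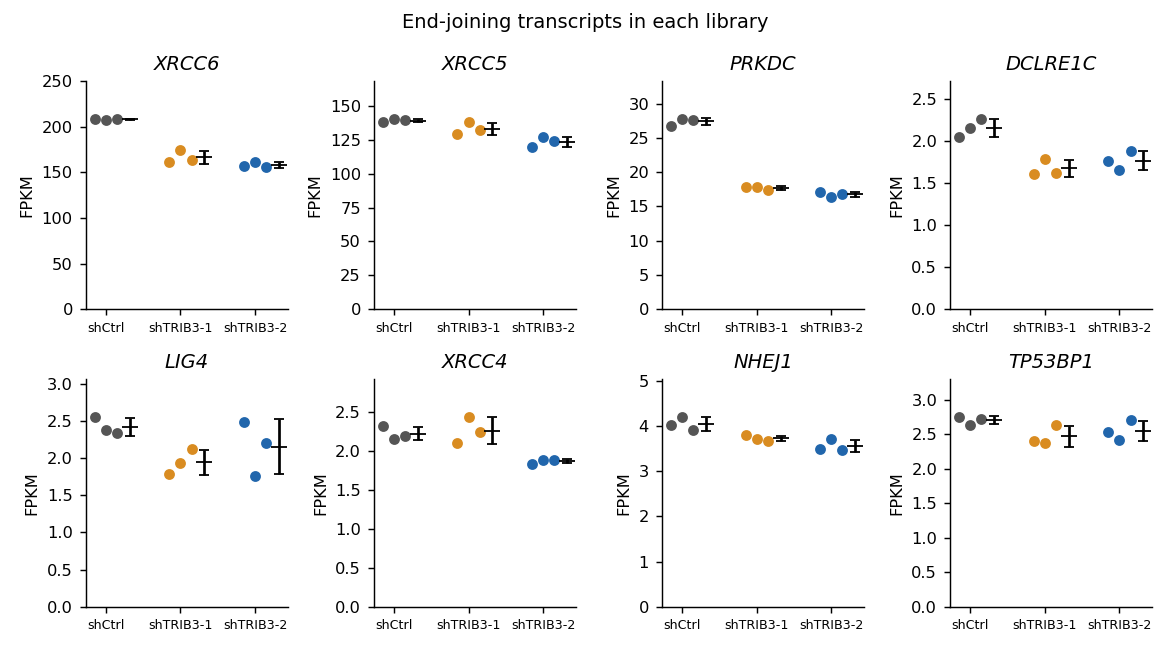
FPKM of the 8 end-joining genes in each of the 9 libraries, with 1 panel a gene and every axis starting at 0. Points are libraries, and the bar beside each group is the mean with its SD (n = 3). PRKDC and XRCC6 show shCtrl libraries well above all 6 knockdown libraries, and the LIG4 libraries with shTRIB3-2 spread from 1.76 to 2.49 FPKM.

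The Ku subunits were the most abundant of the 8 transcripts. XRCC6 (Ku70, ENSG00000196419) lies at chr22:41621163-41664048 on the plus strand of GRCh38 in GENCODE v44. XRCC6 stood at 208, 208 and 209 FPKM in shCtrl, at 162, 175 and 164 with shTRIB3-1, and at 157, 162 and 156 with shTRIB3-2. The shCtrl libraries were above all 6 knockdown libraries, and the hairpin groups lay close together without overlapping. The log2 fold change was -0.32 (SE 0.033, adjusted p = 2.25e-06) with shTRIB3-1 and -0.40 (SE 0.033, adjusted p = 2.84e-07) with shTRIB3-2, and with shTRIB3-2 the level fell by 24.1%. XRCC6 has 5 processed pseudogenes in GENCODE, XRCC6P1 to XRCC6P5, none of which is a symbol of the table, and whether fragments were shared with these copies was not tested.

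XRCC5 (Ku80, ENSG00000079246, chr2:216107464-216206303, plus strand) was at 138, 141 and 140 FPKM in shCtrl, at 130, 138 and 132 with shTRIB3-1, and at 120, 127 and 124 with shTRIB3-2. The shTRIB3-2 libraries were below all others, whereas the highest shTRIB3-1 library reached the lowest shCtrl library. XRCC5 fell with shTRIB3-2 (log2 fold change -0.17, SE 0.033, adjusted p = 4.74e-04) and had a log2 fold change of -0.064 (SE 0.033, adjusted p = 0.0994) with shTRIB3-1. The direct difference between the hairpins was -0.11 (95% interval -0.18 to -0.035, adjusted p = 0.0191). Without shTRIB3-1 replicate 2 it was -0.081 (adjusted p = 0.0782) and without shTRIB3-2 replicate 1 it was -0.084 (adjusted p = 0.0857). With shTRIB3-1 the value turned to 0.016 when each library was centred on its median gene, and it passed at -0.12 after rescaling to TPM (adjusted p = 0.00582), at -0.13 after quantile normalization (adjusted p = 0.00140) and at -0.090 without shTRIB3-1 replicate 2 (adjusted p = 0.0316).

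The proteins of XRCC6 and XRCC5 pair 1 to 1, so the ratio of their transcripts was compared within libraries. The ratio of XRCC6 to XRCC5 FPKM was 1.51, 1.48 and 1.5 in shCtrl, 1.25, 1.26 and 1.24 with shTRIB3-1, and 1.31, 1.27 and 1.25 with shTRIB3-2. The means were 1.49 ± 0.0146, 1.25 ± 0.0136 and 1.28 ± 0.0274 (SD, n = 3 each). Both hairpin groups were below every shCtrl library and overlapped each other. The two-sided exact permutation test gave p = 0.1 for each hairpin against shCtrl, which is the smallest p that 3 against 3 libraries allow, and 0.2 after adjustment over 12 ratio comparisons.

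PRKDC (DNA-PKcs, ENSG00000253729), the kinase that Ku places on the break, had the largest change of the 8 with each hairpin. Its gene spans chr8:47773111-47960178 on the minus strand. PRKDC was at 26.8, 27.8 and 27.7 FPKM in shCtrl, at 17.8, 17.8 and 17.4 with shTRIB3-1, and at 17.2, 16.4 and 16.8 with shTRIB3-2. Every knockdown library was below every shCtrl library. The log2 fold change was -0.63 (SE 0.034, adjusted p = 6.42e-09) with shTRIB3-1 and -0.70 (SE 0.034, adjusted p = 1.86e-09) with shTRIB3-2, and the level fell by 35.3% with the first hairpin and fell by 38.6% with the second. Among all tested genes, 12.9% had a lower log2 fold change with shTRIB3-1 and 11.6% with shTRIB3-2. Between the hairpins PRKDC differed by -0.074 (95% interval -0.15 to -0.00067, adjusted p = 0.0926). A long noncoding RNA on the opposite strand covers 0.543% of its exon bases. The ratio of XRCC6 to PRKDC FPKM was 7.60 ± 0.157 in shCtrl, 9.43 ± 0.353 with shTRIB3-1 and 9.42 ± 0.370 with shTRIB3-2 (SD, n = 3 each), without overlap between shCtrl and either hairpin and with an exact permutation p of 0.1 for each.

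DCLRE1C (Artemis, ENSG00000152457, chr10:14897359-14954432, minus strand), the nuclease that opens hairpins and trims ends, was at 2.05, 2.16 and 2.26 FPKM in shCtrl, at 1.61, 1.79 and 1.63 with shTRIB3-1, and at 1.77, 1.65 and 1.89 with shTRIB3-2. All knockdown libraries were below all shCtrl libraries, and the hairpin groups overlapped. DCLRE1C fell by 0.35 on the log2 scale with shTRIB3-1 (SE 0.088, adjusted p = 0.00349) and by 0.27 with shTRIB3-2 (SE 0.088, adjusted p = 0.0140). The difference between the hairpins was 0.074 (95% interval -0.12 to 0.27). The second call did not hold without shCtrl replicate 3, where the adjusted p was 0.0565. SUV39H2 on the opposite strand covers 1.04% of its exon bases. These levels rest on 487 to 716 fragments per library, against 7686 to 13563 for PRKDC.

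The genes of the ligation complex were near the low end of the tested range and changed less evenly. XRCC4 (ENSG00000152422, chr5:83077498-83353787, plus strand), the scaffold that stabilises ligase IV, was at 2.32, 2.16 and 2.19 FPKM in shCtrl, at 2.10, 2.44 and 2.25 with shTRIB3-1, and at 1.84, 1.89 and 1.88 with shTRIB3-2. The shCtrl and shTRIB3-1 libraries overlapped, and the shTRIB3-2 libraries were below both. XRCC4 fell with shTRIB3-2 (log2 fold change -0.24, SE 0.080, adjusted p = 0.0180) and had a log2 fold change of 0.023 (95% interval -0.15 to 0.20, adjusted p = 0.809) with shTRIB3-1, a value that turned to -0.029 after TPM rescaling and to -0.031 without shTRIB3-1 replicate 2. The direct difference between the hairpins was -0.26 (SE 0.080, adjusted p = 0.020), the largest among the 8 genes. It lost its call without shTRIB3-1 replicate 2 (-0.21, adjusted p = 0.0848) and without shTRIB3-2 replicate 1 (-0.25, adjusted p = 0.0566), and the fall with shTRIB3-2 lost its call without shCtrl replicate 1 (-0.21, adjusted p = 0.0650). XRCC4 rests on 215 to 286 fragments per library, the fewest of the 8 genes.

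LIG4 (DNA ligase IV, ENSG00000174405, chr13:108207439-108218368, minus strand), the enzyme that seals the break, was at 2.55, 2.38 and 2.33 FPKM in shCtrl, at 1.78, 1.93 and 2.12 with shTRIB3-1, and at 2.49, 1.76 and 2.20 with shTRIB3-2. The shTRIB3-1 libraries were below shCtrl, whereas the shTRIB3-2 libraries spanned nearly the whole range of both other groups. LIG4 fell with shTRIB3-1 (log2 fold change -0.30, SE 0.12, adjusted p = 0.0334) and had a log2 fold change of -0.18 (95% interval -0.43 to 0.078, adjusted p = 0.187) with shTRIB3-2. The first call was lost without shCtrl replicate 1 (adjusted p = 0.0968), shCtrl replicate 2 (0.0581), shTRIB3-1 replicate 1 (0.114) or shTRIB3-1 replicate 2 (0.0694), and LIG4 passed with shTRIB3-2 without shTRIB3-2 replicate 1 (log2 fold change -0.29, adjusted p = 0.0435). The ratio of LIG4 to XRCC4 FPKM was 1.09 ± 0.0206 in shCtrl, 0.861 ± 0.0771 with shTRIB3-1 and 1.15 ± 0.214 with shTRIB3-2 (SD, n = 3 each). Its exact permutation p was 0.1 for shTRIB3-1 and 0.7 for shTRIB3-2 against shCtrl.

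NHEJ1 (XLF, ENSG00000187736, chr2:219069355-219160869, minus strand), which bridges the ends beside XRCC4, was at 4.03, 4.20 and 3.90 FPKM in shCtrl, at 3.79, 3.72 and 3.66 with shTRIB3-1, and at 3.49, 3.72 and 3.47 with shTRIB3-2. All 6 knockdown libraries were below shCtrl, and the hairpin groups overlapped. NHEJ1 fell with shTRIB3-2 (log2 fold change -0.18, SE 0.060, adjusted p = 0.0159), a call that was lost without shCtrl replicate 2 (adjusted p = 0.0690), and had a log2 fold change of -0.12 (SE 0.060, adjusted p = 0.0980) with shTRIB3-1. In GENCODE, another gene model on the same strand covers 19.5% of the exon bases of NHEJ1 and 6.40% are shared with a long noncoding RNA on the opposite strand, so its level is uncertain. The ratio of NHEJ1 to XRCC4 FPKM was 1.82 ± 0.111, 1.65 ± 0.140 and 1.90 ± 0.0624 in shCtrl, shTRIB3-1 and shTRIB3-2 (SD, n = 3 each). The exact permutation p was 0.3 for each hairpin against shCtrl and 0.1 between the hairpins.

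TP53BP1 (53BP1, ENSG00000067369, chr15:43403061-43510728, minus strand) was at 2.75, 2.64 and 2.72 FPKM in shCtrl, at 2.39, 2.37 and 2.64 with shTRIB3-1, and at 2.53, 2.41 and 2.70 with shTRIB3-2. In both hairpin groups 1 library reached the shCtrl range. The log2 fold change was -0.13 (95% interval -0.29 to 0.036, adjusted p = 0.140) with shTRIB3-1 and -0.084 (95% interval -0.25 to 0.079, adjusted p = 0.323) with shTRIB3-2, so neither passed. Of its exon bases, 28.8% are covered by TUBGCP4 on the opposite strand, a gene that had log2 fold changes of -0.43 and -0.34, and unless the fragments were counted by strand, those of TP53BP1 and TUBGCP4 there cannot be told apart.

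**Figure D2:**
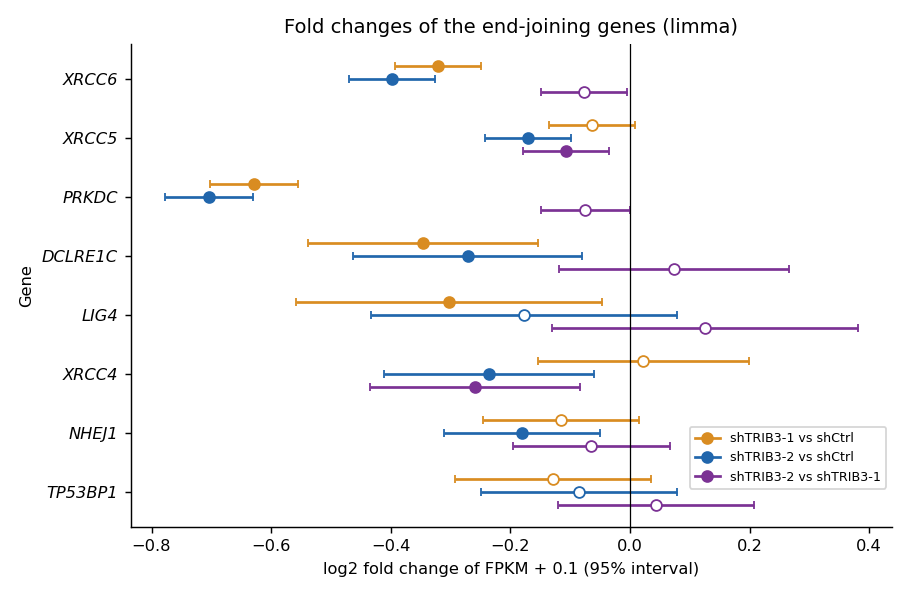
Log2 fold changes of FPKM + 0.1 for the 8 end-joining genes in the 3 comparisons, with 95% intervals from limma, where filled points passed at an adjusted p under 0.05 and open points did not. PRKDC lies at -0.63 and -0.70 and XRCC6 at -0.32 and -0.40, and the intervals of TP53BP1 include 0 in each comparison.

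Directly between the hairpins, 2 of 8 genes were lower with shTRIB3-2 (XRCC4 and XRCC5) and 0 were higher, against 20.7% of all tested genes lower and 25.1% higher. The median difference of the 8 genes was -0.069, beside 0.025 for all tested genes. None of the 8 differed by more than 1 on the log2 scale, which 1.79% of tested genes did downward. TRIB3 differed by -0.71 (SE 0.030) in the same comparison.

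The order of the levels per length was the same for the upper 5 genes in all groups, namely XRCC6, XRCC5, PRKDC, NHEJ1 and TP53BP1. In shCtrl the means were 208, 139, 27.4, 4.04 and 2.70 FPKM for these 5, followed by LIG4 (2.42), XRCC4 (2.22) and DCLRE1C (2.16). The ranges of XRCC4 and DCLRE1C overlapped in shCtrl, and those of every neighbouring pair from TP53BP1 downward overlapped with either hairpin. XRCC4 stood above LIG4 with shTRIB3-1 and below it with shTRIB3-2, with overlapping ranges both times. In shCtrl 98.2% of tested genes had a lower FPKM than XRCC6 and 80.9% a lower FPKM than PRKDC, but only 16.1% were lower than DCLRE1C.

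**Figure D3:**
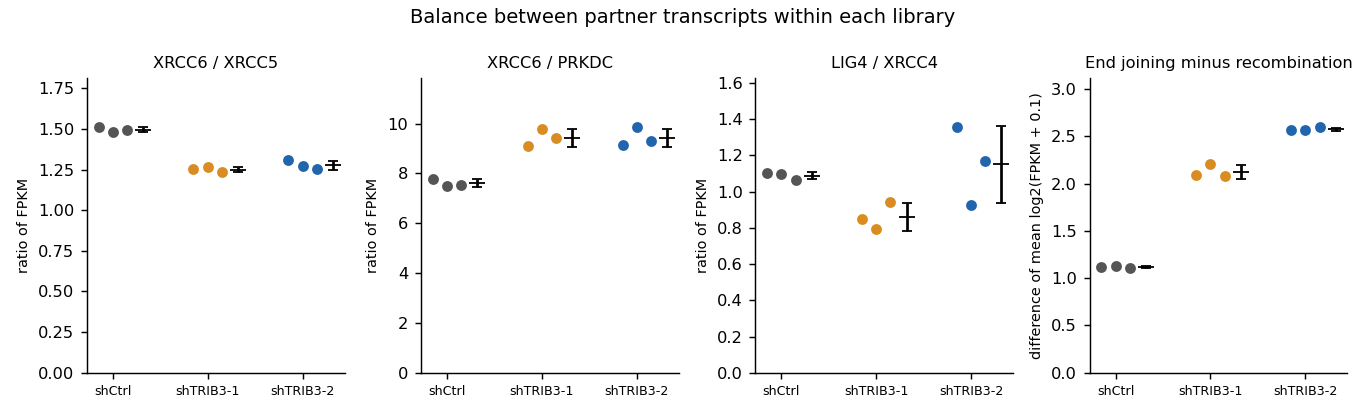
Ratios of FPKM between partner transcripts, and the mean log2(FPKM + 0.1) of the 8 end-joining genes minus that of 12 recombination genes, in each of the 9 libraries with the mean and SD of each group (n = 3). The XRCC6 to XRCC5 ratio is lower with both hairpins (1.25 and 1.28 against 1.49), the XRCC6 to PRKDC ratio is higher (9.43 and 9.42 against 7.60), and the end joining minus recombination difference goes from 1.12 to 2.12 and 2.57.

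Accessory end-joining factors were read from a list of 15 genes, of which 14 were in the table and 13 were tested. With shTRIB3-1, 11 of 13 fell and 0 rose (median log2 fold change -0.49), and with shTRIB3-2, 10 of 13 fell and 0 rose (median -0.38), where 41.5% and 40.5% of all tested genes fell and 32.9% and 35.4% rose. PAXX, which binds Ku, had log2 fold changes of -0.53 and -0.28, and TDP1 and TDP2, which remove trapped topoisomerases from DNA ends, had -0.49 and -0.61, and -0.97 and -1.0. Of the complex that senses breaks and starts resection, MRE11 had -0.86 and -1.10 and NBN -1.01 and -0.84, whereas RAD50 had -0.12 with shTRIB3-1 and 0.089 with shTRIB3-2 (adjusted p = 0.0944). FEN1, a flap nuclease of DNA replication, had the largest falls of the list at -1.61 and -2.51. DNA polymerase lambda (POLL) and the helicase WRN did not pass with either hairpin.

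Around TP53BP1, 13 genes of its pathway were all tested. With shTRIB3-1, 9 fell and 2 rose (median -0.24), beside 41.5% of all tested genes that fell and 32.9% that rose. With shTRIB3-2, 6 fell and 2 rose (median -0.24), beside 40.5% of all tested genes that fell and 35.4% that rose. H2AX, the histone whose phosphorylated form marks breaks, fell by 1.44 and 2.39 on the log2 scale. RNF168, the ubiquitin ligase that writes the mark read by 53BP1, rose by 0.43 and 0.30. The shieldin subunits, which block resection under 53BP1, differed among themselves, with SHLD1 at 0.54 and 0.22, SHLD2 at -0.24 and -0.024, and SHLD3 at -0.50 and -0.15, of which the 3 shTRIB3-1 values passed and the shTRIB3-2 values did not. PAXIP1 had -0.38 and -0.51, ASTE1 -0.54 and -0.26, and DYNLL1 0.10 and 0.13, and those that did not pass were ASTE1 with shTRIB3-2 and DYNLL1 with shTRIB3-1.

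The competing repair routes are given for comparison, against the same shares of 41.5% and 40.5% of tested genes that fell. Of 11 genes of polymerase theta end joining, a route that uses short homologies after resection, 11 fell with shTRIB3-1 (median -0.91) and 10 with shTRIB3-2 (median -1.04), with POLQ, the polymerase, at -1.32 and -2.56 (FEN1, MRE11, RAD50 and NBN are in this list too). Of 13 homologous recombination genes 12 were tested, and 11 fell with each hairpin, with medians of -1.36 and -1.89. BRCA1 had -1.83 and -2.69, and PALB2 did not pass with either hairpin. The mean log2 level of the 8 end-joining genes minus that of the 12 recombination genes was 1.12 ± 0.00999 in shCtrl, 2.12 ± 0.0749 with shTRIB3-1 and 2.57 ± 0.0153 with shTRIB3-2 (SD, n = 3 each), given as a description without a test.

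**Figure D4:**
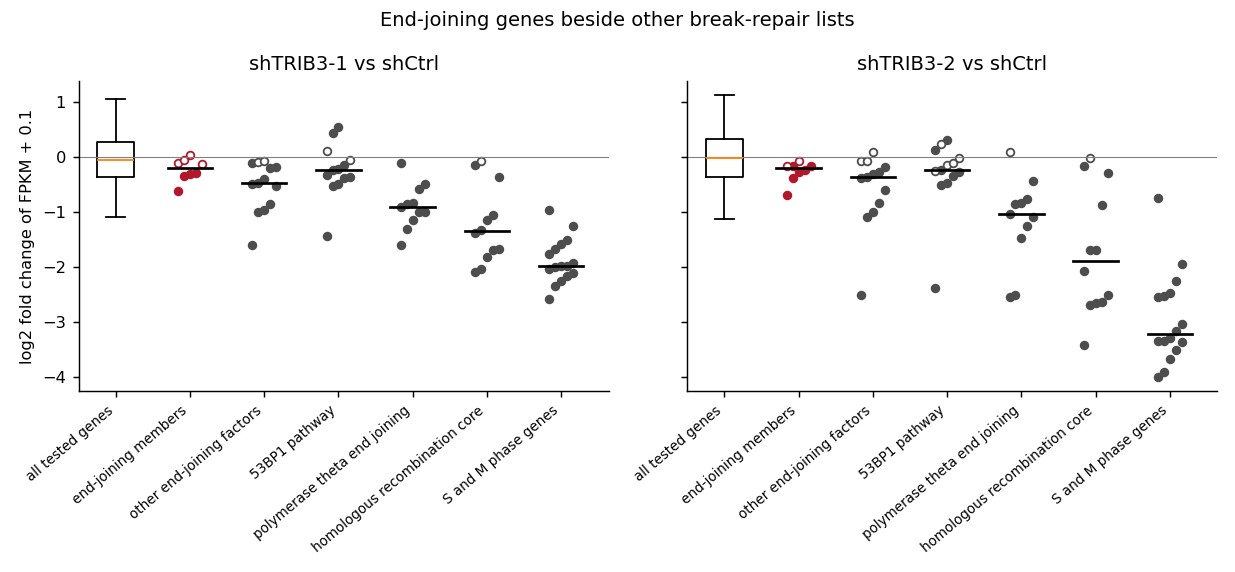
Log2 fold changes of FPKM + 0.1 against shCtrl for the 8 end-joining genes (red) and for 5 lists of other genes (grey), with shTRIB3-1 on the left and shTRIB3-2 on the right. Filled points passed at an adjusted p under 0.05, short lines are list medians, and the box for all 11265 tested genes runs from the percentile 25 to 75 with whiskers at 5 and 95. The end-joining medians of -0.22 and -0.21 lie inside the box, and the recombination medians are -1.36 and -1.89.

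In GENCODE, 4 of the 8 genes have a protein-coding neighbour on the other strand that starts within 1 kb before their own start. Neighbours that start inside one of the 8 genes were not searched. PRKDC and MCM4, a subunit of the replicative helicase, start 7 bases apart in opposite directions, and MCM4 had log2 fold changes of -1.77 (adjusted p = 1.42e-11) and -2.54 (adjusted p = 5.58e-13), beside -0.63 and -0.70 for PRKDC. MCM4 stood at 29.8 FPKM in shCtrl, 8.67 with shTRIB3-1 and 5.05 with shTRIB3-2 in group means. XRCC6 starts 120 bases from DESI1, which rose by 0.29 and 0.44 where XRCC6 fell. LIG4 starts 24 bases from ABHD13, which fell by 0.62 and 0.48. TP53BP1 starts 230 bases from MAP1A, which was under the level filter.

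For each gene, the tested genes with the most similar pattern were found by the root mean square difference of centred log2 values over the 9 libraries, among 11183 genes outside the lists. For PRKDC these were MAT2B (0.0333) and RBMX (0.0354), for XRCC6 MTREX (0.0233) and PSMC6 (0.0260), and for XRCC5 TRIR (0.0215) and ZNF207 (0.0245). DCLRE1C was nearest to MRPS33 (0.0400) and NUDT22 (0.0410), XRCC4 to BOD1L1 (0.0346) and SLBP (0.0496), and LIG4 to ZFP41 (0.0630) and PTCD2 (0.0757). NHEJ1 was nearest to TUBGCP2 (0.0283) and YWHAQ (0.0340), and TP53BP1 to SCO1 (0.0361). Among the 8 genes themselves, the nearest to PRKDC was XRCC6 at 0.150, and XRCC5 and NHEJ1 were nearest to each other at 0.0468.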

How the data were processed

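RNA-seq was made from 9 HepG2 libraries, 3 each with shCtrl, shTRIB3-1 and shTRIB3-2, and groups were taken from the labels. The deposited values were FPKM, computed by the authors for 1 row per gene symbol. The submitters' processing notes name HTSeq, R 3.2.0 and GRCh38, and the study's methods name STAR as aligner. The study's methods call its libraries strand-specific but name another kit than the labels. The strand setting of the counting and the annotation release are not given in the sources used here. FPKM does not correct for a change in RNA composition.

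Gene lengths and library totals were solved from the FPKM values, and a length was found for 24202 of 24204 symbols. Of 172769 values above 0, 100% of those with a solved length came within 0.02 of a whole number of fragments. Lengths were chosen by that same rule, so the 100% is no check of the totals, and depth is a solved value. Totals ran from 34206726 to 36311029, a ratio of 1.06. Fragments carried no molecular identifiers, and counting error covers only part of the error of a library.

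Genes with at least 1 FPKM in at least 3 of 9 libraries were tested (11265 of 24204 symbols). Log2(FPKM + 0.1) was fitted with 3 group means in limma 3.58.1 (R 4.3.3) with a mean-variance trend, two-sided, with Benjamini-Hochberg adjustment across the tested genes. Ratios were tested by exact permutation in scipy 1.17.1. Positions and overlaps came from GENCODE v44 on GRCh38, promoters from RefSeq (GRCh38.p14), and hairpin sequences from the study's supplement. Overlap shares are of all GENCODE exon bases of a gene, which need not be the exons that the authors counted. For PRKDC these were 29073 bases, against a solved length of 13459. Scripts that test across genes were tested on simulated data. Replicates differed by more than sampling noise (chi-square per degree of freedom 3.13 to 7.54). The 8 genes and the lists were chosen with earlier results of these data known, and the lists were written from general knowledge. Values were given for all 8 genes, TRIB3, and list genes past an absolute log2 fold change of 0.5 with either hairpin or opposite in sign to their list, with further examples chosen after their values were seen. Alternatives changed the pseudocount (0.01 or 1), the filter, the scaling (TPM, median centring, quantile), the model (voom on the recovered fragments, only the 2 groups compared, the replicate number as a block) and left out each library in turn. Some single genes that this rule or the search for similar patterns would name are not reported here.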

Additional observations from a re-analysis of the deposited data

Results flagged for a closer look

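For 2 genes the effects of the hairpins differed from each other in the direct limma comparison of shTRIB3-2 with shTRIB3-1, over all tested genes, of which 20.7% were lower and 25.1% higher, so 2 of 8 is near the general rate. XRCC4 was lower with shTRIB3-2 by a log2 difference of -0.26 (adjusted p = 0.020), with all 3 shTRIB3-2 libraries below all 3 shTRIB3-1 libraries. XRCC5 was lower with shTRIB3-2 by a log2 difference of -0.11 (adjusted p = 0.0191), again without overlap. Such separation was common. The shTRIB3-2 libraries lay wholly below the shTRIB3-1 libraries for 4 of the 8 genes and wholly above for 0, beside 2749 and 3396 of 11265 tested genes. Over the alternatives the XRCC4 difference ran from -0.31 to -0.18 and the XRCC5 difference from -0.14 to -0.054, and the XRCC4 difference lost its call in 2 of 18 and the XRCC5 difference in 4 of 19 of them.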

How the results depend on the processing

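Over 441 alternative values for the fold changes of the 8 genes, 407 kept their direction and side of the threshold, 21 lost their call, 10 gained one and 3 changed sign. The falls of XRCC6 and PRKDC with both hairpins and of XRCC5 with shTRIB3-2 held in all 19 alternatives. The fall of DCLRE1C with shTRIB3-1 held in all 18 in which it could be tested. That of LIG4 with shTRIB3-1 was lost in 7 of 18. The sign changes were XRCC4 with shTRIB3-1 after TPM rescaling (-0.029) and without shTRIB3-1 replicate 2 (-0.031, in a range of -0.031 to 0.072 over the libraries left out), and XRCC5 with shTRIB3-1 after median centring (0.016), and none of these passed. With a filter of 5 FPKM only XRCC5, XRCC6 and PRKDC could be tested. Of these 3 genes, 2 fell with shTRIB3-1, 3 with shTRIB3-2, and 1 differed between hairpins. Of 7714 genes tested under this filter, 3328 fell and 2767 rose with shTRIB3-1, and 3240 fell and 2953 rose with shTRIB3-2. Between hairpins 1857 of them were lower and 2276 higher. Under the same filter the counts of falling genes with shTRIB3-1 and shTRIB3-2 were 7 and 6 for accessory end joining and 4 and 4 for recombination, that of the 53BP1 list was 5 with shTRIB3-1, and between hairpins 3 recombination and 3 polymerase theta genes were lower. Each of these lists lost genes to the filter, so the counts are out of fewer tested genes than those given above. With quantile normalization 3 of the 8 genes fell with shTRIB3-2 (DCLRE1C, XRCC4 and NHEJ1 did not pass), beside 4190 of 11265 tested genes. Between hairpins, TPM rescaling gave 1 of the 8 genes and 1 accessory gene, and voom gave 4 of the 8. In the same comparison, 1892 of 11268 tested genes were lower and 3140 higher after TPM rescaling. With voom 2683 of 11265 were lower and 2735 higher. The cause of these shifts with scaling was not tested. Leaving out 1 library at a time gave 3 to 4 falling genes of the 8 with shTRIB3-1 and 5 to 7 with shTRIB3-2. Between hairpins it gave 0 to 2 (0 without shTRIB3-1 replicate 2 or without shTRIB3-2 replicate 1). Accessory genes lower between hairpins numbered 1 to 3 (1 without shTRIB3-1 replicate 2). In these fits 4423 to 4735 of 11265 tested genes fell with shTRIB3-1 and 4288 to 4551 with shTRIB3-2. Between hairpins 2046 to 2375 were lower and 2278 to 2890 higher. Whether library replicate numbers pair the samples is uncertain. Libraries of the same number had correlations of -0.074 to 0.093, and those of different numbers -0.076 to 0.048. Between the 2 hairpin groups the same-number values were 0.093, 0.060 and 0.028, and the different-number values ran from -0.076 to 0.014. With the replicate block, 5 of the 8 genes fell with shTRIB3-1 (XRCC5 in addition, adjusted p = 0.0494), 6 with shTRIB3-2, and 2 differed between hairpins. Of 11265 tested genes, 4716 fell with shTRIB3-1 and 4581 with shTRIB3-2 in that fit, and between hairpins 2387 were lower and 2887 higher. The shift of the median gene under any scaling was at most 0.080 on the log2 scale. XRCC4 and LIG4 rest on 215 to 425 fragments per library. The spread of LIG4 between shTRIB3-2 libraries (coefficient of variation 17.2%) was above its counting error (5.37%), and that of XRCC4 in the same libraries was below it (1.52% against 6.71%).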
